A study of Mus musculus with 5 samples.

Results

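The Myc family transcription factors Myc and Mycn and the G1 cyclins Ccnd1, Ccnd2, Ccnd3, Ccne1 and Ccne2 were followed in mouse epiblast stem cells through every array probe annotated to them. The members were chosen by gene name, with earlier results of these data known. They comprised 7 of 16593 named genes and 12 of 25697 probes. Ccnd1 and Ccnd3 had 3 probes each, Myc had 2, and the remaining genes had 1 each. The cells were of the E3 line, pluripotent cells of the post-implantation epiblast type. They had grown on inactivated CF1 mouse embryonic fibroblasts, which serve as feeder cells, in a knockout serum replacement medium containing FGF2 at 5 ng/ml. At semiconfluence the medium was exchanged for 12 h, and the new medium carried no added FGF2 in any group. The untreated culture received no supplement. The PD culture received 1 µM PD0325901, which inhibits the kinase MEK, and the CH culture received 3 µM CHIR99021, which inhibits the kinase GSK3. The LIF culture received 1000 U/ml of leukemia inhibitory factor, and the PCL culture received the 3 agents together at these doses. Each condition was 1 culture on 1 array of 1 cell line, so no difference has a replicate check and none was tested. The feeder cells were part of each culture, and in such bulk RNA fewer cells of a type and less RNA per cell cannot be told apart.

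D-type cyclins bind the kinases CDK4 and CDK6, and E-type cyclins bind CDK2. Together these kinases phosphorylate the retinoblastoma protein, which releases E2F factors that drive S-phase genes. D-type cyclin genes respond to growth factor signalling through MEK and ERK, and GSK3 marks cyclin D1 and Myc proteins for degradation, a step that arrays of RNA do not measure. Myc factors pair with Max and activate genes of ribosome production and growth, and in mouse embryonic stem cells Myc is a target of both LIF-activated STAT3 and, as a protein, of GSK3.

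The sequences upstream of annotated transcription starts were taken from RefSeq on GRCm38.p6, where Mycn, Ccnd3 and Ccne1, 3 of the 7 members, had an entry in the table. The windows of Ccnd3 are shown because its probes gave unequal differences and the gene has 2 annotated starts 88416 bp apart, and that of Ccne1 because this cyclin stood lower with MEK inhibition. Each window holds the 250 bases before the start, 5′ to 3′ on the gene's strand, without transcribed bases of that start. Capitals mark matches on either strand to the GC box GGGCGG, to TGACGT, the core of the cyclic AMP response element, and to CCAAT.
Ccnd3 first start, chr17:47504801-47505050, plus strand: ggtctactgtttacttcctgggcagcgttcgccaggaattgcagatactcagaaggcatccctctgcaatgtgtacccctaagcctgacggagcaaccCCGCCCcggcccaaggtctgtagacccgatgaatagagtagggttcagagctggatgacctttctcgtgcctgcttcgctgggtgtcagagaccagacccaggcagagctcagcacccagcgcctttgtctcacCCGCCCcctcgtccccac
Ccnd3 second start, chr17:47593217-47593466, plus strand: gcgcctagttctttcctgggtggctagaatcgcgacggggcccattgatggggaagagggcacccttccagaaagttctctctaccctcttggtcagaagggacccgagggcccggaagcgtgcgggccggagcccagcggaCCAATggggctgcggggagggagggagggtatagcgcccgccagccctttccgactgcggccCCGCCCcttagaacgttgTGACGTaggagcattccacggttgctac
Ccne1, chr7:38107491-38107740, minus strand: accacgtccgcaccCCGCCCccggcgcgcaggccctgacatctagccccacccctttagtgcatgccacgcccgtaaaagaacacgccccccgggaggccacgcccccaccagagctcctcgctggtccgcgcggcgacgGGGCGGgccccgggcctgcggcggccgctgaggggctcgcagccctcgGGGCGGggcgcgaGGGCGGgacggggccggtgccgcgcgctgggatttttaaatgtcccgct
The GC box occurred 2 times at the first Ccnd3 start, 1 time at the second and 4 times at Ccne1, and 32.7% of all 32851 windows of this length held it. The TGACGT and CCAAT matches lay at the second Ccnd3 start only among these windows, against 6.47% and 33.8% of all windows. No match was found in these 3 windows to the E2F sequences TTTGGCGC, TTTCCCGC, TTTGCCGC and TTTCGCGC (1.86% of all windows), the Myc E box CACGTG (6.02%), the TCF sequence CTTTGAT (3.21%), the STAT sequence TTCNNNGAA (7.02%) or the AP-1 sequence TGANTCA (6.75%). The GC content of the windows was 59.6%, 64.8% and 76.0%. The window of Mycn, which is not printed, held 2 GC boxes and 3 E2F matches that overlapped in part, and no match to the other sequences searched.

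Signals were bead intensities on a linear scale, and detection required a deposited detection p under 0.01 on the array in question. Between 40.4% and 42.4% of all probes were detected on an array, and the dimmest detected probe of each array lay between 98.9 on the untreated and 106.7 on the CH array. The median bead standard error was 4.13% to 4.39% of the signal for detected probes. Levels below are on the log2 scale after background correction and quantile normalization, each ± is the bead standard error (bead SE) on that scale, and it covers measurement within the arrays only. Known response genes of each agent lay far from untreated: Egr1, an ERK-induced factor, was at least 6.57-fold lower with PD, the Wnt target Sp5 was at least 7.35-fold higher with CH, and the STAT3 feedback gene Socs3 stood at 1.79 ± 0.10 with LIF. Of the 2 reference genes, Actb stood at 0.46 ± 0.04 with LIF, and its 4 other probes ranged from -0.84 to 0.38. With PD it stood at 0.02 ± 0.07, and the other probes ranged from -0.89 to 0.08. Gapdh stood at 0.08 ± 0.05 with LIF and -0.22 ± 0.06 with CH, with its other probe at 0.36 and -0.12. All 9 epiblast markers on the array were detected on every array, Pou5f1, Sox2 and Nanog included. Of 15 feeder fibroblast markers, 9 or 10 were detected on each array, and Col1a2, Col3a1, Postn, Pdgfrb and S100a4 were detected on none.

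Of the 12 probes, 8 were detected on all 5 arrays and 4 on none, so 5 of the 7 genes could be compared. The genes that could not be compared were Myc and Mycn. On the brighter Myc probe (ILMN_2623526) the signal was 87.1 in untreated cells, 90.8 on the PD array, 87.9 under CH, 85.0 under LIF and 85.3 under PCL. On the other Myc probe (ILMN_1231123) it was 76.0, 85.0, 80.9, 77.3 and 81.6 in the same order. On the Mycn probe (ILMN_2619172) it was 80.3, 82.7, 87.4, 75.0 and 82.8. In all 15 of these readings the probe lay within the range of the negative controls, with detection p from 0.134 to 0.995, and the median negative control stood at a signal of 80.6 to 85.8. No fold is given for Myc or Mycn, since a probe not well above background on either array has no measured difference, and their levels in untreated cells and under each agent are not resolved by these probes. The probe sequences were not used here, so whether they match the transcripts these cells make was not tested.

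**Figure D1:**
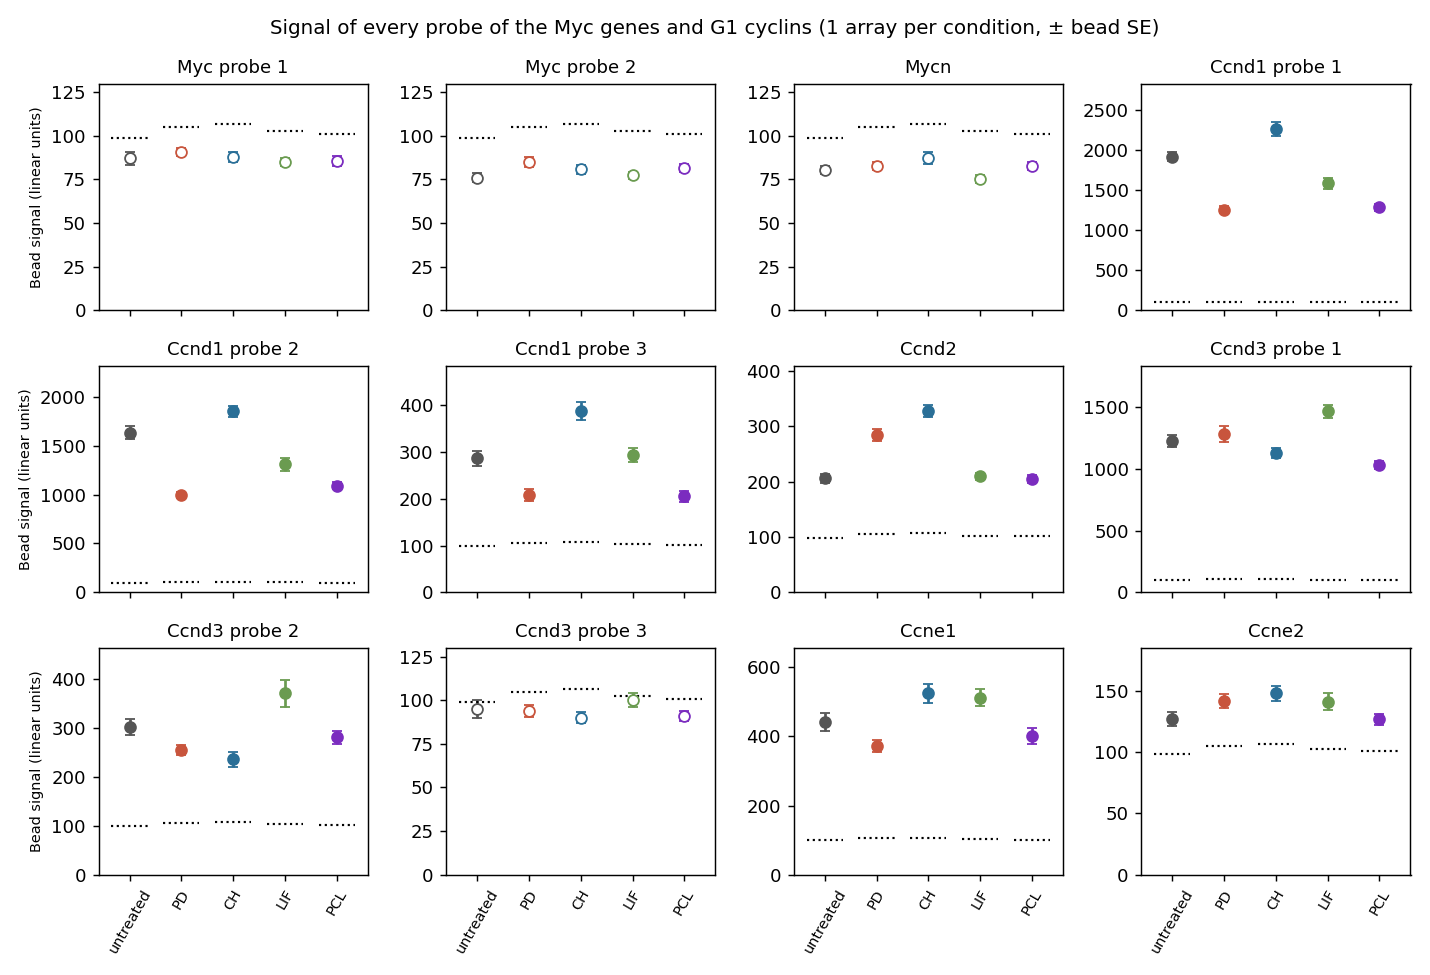
Bead signal (linear units, y axis from 0) of the 12 probes on the untreated, PD, CH, LIF and PCL arrays, 1 array per condition, with bead standard errors as bars. Filled points are detected and open points are not, dotted lines give the dimmest detected probe of each array, and probes of a gene are numbered from the brightest. The 3 probes of Myc and Mycn and the dimmest probe of Ccnd3 are open on all 5 arrays.

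Ccnd1, the D-type cyclin best known as a growth factor target, was the member furthest below untreated with MEK inhibition. Its brightest probe (ILMN_1221503) read 1913 in untreated cells, 1253 on the PD array, 2260 under CH, 1579 under LIF and 1284 under PCL. Its second probe (ILMN_2601471) read 1634, 994, 1853, 1310 and 1089 in that order, and its dimmest (ILMN_2669793) read 287, 208, 388, 294 and 205. All 3 probes put CH highest, and PD and PCL were the lowest pair on each.

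With PD, the normalized difference of Ccnd1 from untreated was -0.62 ± 0.07, -0.78 ± 0.08 and -0.81 ± 0.17 on the 3 probes, with a mean of -0.74 and an SD between probes of 0.10. The probes share the same 2 RNA samples, so this SD measures agreement of probes and not of cultures. The brightest probe was 1.54-fold lower and lay below all but 294 of 7761 genes compared. With PCL the differences were -0.47 ± 0.07, -0.45 ± 0.08 and -0.61 ± 0.16.

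With CH, Ccnd1 stood at 0.14 ± 0.07, 0.08 ± 0.08 and 0.36 ± 0.14, and the second probe was within 2 bead standard errors of untreated. With LIF it stood at -0.32 ± 0.08, -0.41 ± 0.11 and -0.20 ± 0.14, and there the dimmest probe was within 2 bead standard errors. The raw signal of that probe was higher with LIF than in untreated cells, so the sign of its difference came with the normalization, and it was -0.0052 under median scaling.

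Compared with each other, the kinase inhibitors gave Ccnd1 levels that lay far apart. CH stood above PD by 0.77 ± 0.07, 0.86 ± 0.07 and 1.17 ± 0.16 on the 3 probes, of which the last was past 2-fold. On the brightest probes 0 members were 2-fold apart and Ccnd1 was the 1 member at least 1.5-fold higher, against 1.91% and 5.34% of genes. The brightest probe had 7527 of 7713 genes below it in that comparison. PCL contained both inhibitors, and PCL minus CH was -0.61 ± 0.07, -0.53 ± 0.07 and -0.97 ± 0.15. PCL stood above PD by 0.16 ± 0.07, 0.33 ± 0.07 and 0.19 ± 0.18. PCL minus LIF was -0.14 ± 0.09, -0.04 ± 0.10 and -0.41 ± 0.15, so the order of LIF and PCL was not resolved on the first 2 probes.

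Ccnd2, a D-type cyclin with 1 probe (ILMN_2700166), was higher with each kinase inhibitor alone and not with the combination. Its signal was 206 in untreated cells, 284 on the PD array, 327 under CH, 210 under LIF and 205 under PCL. The CH and PD arrays were high, and the untreated, LIF and PCL arrays were nearly equal.

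The normalized difference of Ccnd2 from untreated was 0.71 ± 0.10 with CH, which is 1.63-fold, and 0.48 ± 0.11 with PD. It was 0.02 ± 0.10 with PCL. The CH value had 7533 of 7699 genes below it, and the PD value 7024 of 7761. With LIF it was -0.23 ± 0.10 although the raw signals were nearly equal, and it was -0.019 under median scaling. PCL minus CH was -0.68 ± 0.09 and PCL minus PD was -0.45 ± 0.10. Ccnd1 and Ccnd2 were the 2 members at least 1.5-fold lower with PCL than with CH, against 3.8% of genes. PCL minus LIF was 0.26 ± 0.10, which became 0.04 under median scaling. Ccnd1 and Ccnd2 thus stood on opposite sides of untreated with PD and on the same side with CH. The CH values were unlike in rank, with 70.3% of genes below the brightest Ccnd1 probe and 97.8% below Ccnd2.

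Ccnd3, another D-type cyclin, gave unequal values on its probes. The brightest (ILMN_3131063) read 1226 in untreated cells, 1282 on the PD array, 1126 under CH, 1465 under LIF and 1029 under PCL. The second (ILMN_1246473) read 301.3, 254.3, 235.5, 370.2 and 280.5 in that order. Both probes were highest with LIF, while the lowest signal was with PCL on the first and with CH on the second. After normalization CH was the lowest array on both. The dimmest (ILMN_2661849) lay between 90.1 and 100.1 and was detected on no array, with detection p from 0.0125 to 0.229.

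With CH, Ccnd3 stood at -0.25 ± 0.08 on the brightest probe and -0.68 ± 0.17 on the second. With PD it stood at 0.07 ± 0.10 and -0.47 ± 0.13, so the probes differed by 0.55 ± 0.17. Among 3217 pairs of detected probes of the same gene, 13.2% were at least this far apart with PD, and the median gap was 0.23. The gap of 0.43 ± 0.19 with CH was reached by 15.0% of 3212 pairs. With LIF the probes gave 0.21 ± 0.09 and 0.13 ± 0.17, and with PCL -0.11 ± 0.08 and -0.07 ± 0.14. Genes of a genomic span like that of Ccnd3 had a median of 0.17 with LIF and 0.16 with PD, so its LIF values lay near that median. PCL minus CH was 0.14 ± 0.08 and 0.60 ± 0.15, and the first of these turned to -0.04 under median scaling. PCL minus PD was -0.18 ± 0.09 and 0.40 ± 0.11, so the probes gave opposite signs against PD. CH was the condition in which both detected probes lay below untreated by more than 2 bead standard errors. Gaps between the 3 Ccnd1 probes were smaller with PD, at 0.02 to 0.18 in size, and 58.6% to 94.0% of probe pairs were at least as far apart. Which transcript of Ccnd3 each probe reads, and from which of the 2 starts shown above, was not tested.

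Ccne1, the cyclin that activates CDK2 at the entry to S phase, was read by 1 probe (ILMN_2716497). Its signal was 443 in untreated cells, 372 on the PD array, 525 under CH, 512 under LIF and 401 under PCL. PD was the lowest array. The difference from untreated was -0.42 ± 0.14 on the PD array, 0.10 ± 0.13 under CH, 0.03 ± 0.13 under LIF and -0.10 ± 0.14 under PCL, and the PD value alone lay beyond 2 bead standard errors. PCL stood above PD by 0.33 ± 0.14, and CH stood above PD by 0.53 ± 0.13. Below the PD value lay 782 of 7761 genes, which is 10.1%, so a difference of this size was common on that array.

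Ccne2, the second E-type cyclin, was the dimmest detected member, with 1 probe (ILMN_1245789). Its signal was 127 in untreated cells, 142 on the PD array, 148 under CH, 141 under LIF and 127 under PCL. The readings were close on all 5 arrays, and the normalized levels spanned 0.20. The differences from untreated were 0.07 ± 0.17 on the PD array, 0.18 ± 0.17 under CH, 0.01 ± 0.18 under LIF and -0.01 ± 0.17 under PCL. None exceeded 2 bead standard errors, and at this signal a shift of the size of the bead error could not be resolved.

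**Figure D2:**
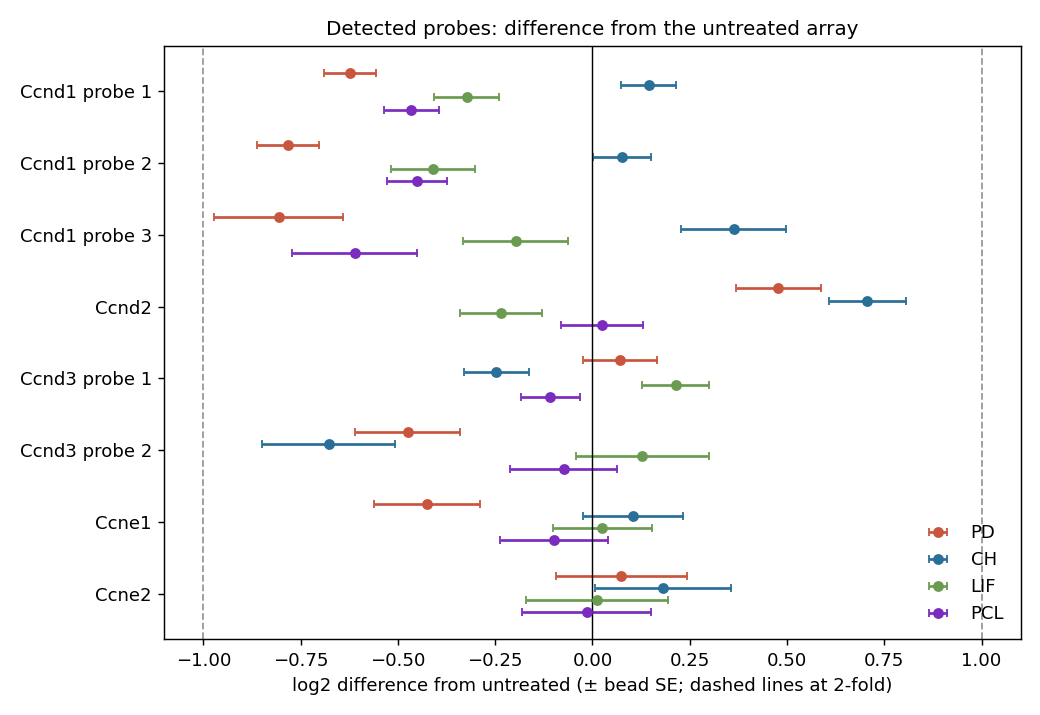
Log2 difference from the untreated array (x axis) of the 8 detected probes with PD, CH, LIF and PCL, with bead standard errors as bars and dashed lines at 2-fold. The 3 Ccnd1 probes lie left of 0 with PD at -0.62 to -0.81, Ccnd2 lies right of 0 with CH and PD, and no point reaches 2-fold.

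No member was at least 2-fold from untreated on any treated array, where 0.941% of genes were past 2-fold with PD, 0.961% under CH, 2.96% under LIF and 1.39% under PCL. At 1.5-fold, 1 member was lower with PD (Ccnd1), where 4.63% of genes were that far lower. With CH, 1 member was at least 1.5-fold higher (Ccnd2), against 4.03% of genes. With LIF and PCL 0 members passed 1.5-fold, against 12.8% and 8.51% of genes in either direction. Beyond 2 bead standard errors lay 3 of the 5 members with PD, CH and LIF and 1 with PCL, against 42.9%, 36%, 45.6% and 34.3% of all genes. Distances beyond 2 bead standard errors were therefore common on these arrays, and the bead error does not measure how a second culture would differ. The medians over the 5 members were 0.07, 0.14, 0.01 and -0.10 with PD, CH, LIF and PCL, and those over all genes were 0.00, -0.01, 0.05 and 0.00. These 4 comparisons share the untreated array.

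The order of the arrays differed between members. On the brightest Ccnd1 probe it ran PD, PCL, LIF, untreated and CH from low to high, and of these neighbours PCL and LIF did not differ beyond 2 bead standard errors. For Ccnd2 it ran LIF, untreated, PCL, PD and CH, and untreated and PCL lay within that error. For Ccne1 PD was separated from PCL by 0.33 and the other neighbours lay within the error. For Ccnd3 on its brightest probe and for Ccne2 no pair of neighbours lay beyond it.

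The combined treatment was set against the sum of the single agents on the log2 scale. For Ccnd2 the single differences summed to 0.95 and PCL stood at 0.02, a departure of -0.93 ± 0.21. Over 6732 genes detected on all arrays the departure had a median of -0.04, with its 5th and 95th percentiles at -1.06 and 1.19, and 7.56% of genes lay below Ccnd2. The second probe of Ccnd3 summed to -1.03 against -0.07 measured, a departure of 0.95 ± 0.31, while the brightest probe gave -0.15 ± 0.17. The Ccnd1 probes gave departures of 0.34 ± 0.14, 0.67 ± 0.17 and 0.03 ± 0.30. Those of Ccne1, at 0.20 ± 0.27, and Ccne2, at -0.28 ± 0.35, lay within 2 bead standard errors of 0. Under median scaling the departures were -1.37 for Ccnd2, 0.53 on the second Ccnd3 probe, -0.39 on the dimmest Ccnd1 probe, -0.20 for Ccne1 and -0.68 for Ccne2, so those of the dimmest Ccnd1 probe and of Ccne1 turned their sign. The untreated array enters each sum 3 times and the PCL difference 1 time, so an error of the untreated array alone would shift all of these departures.

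**Figure D3:**
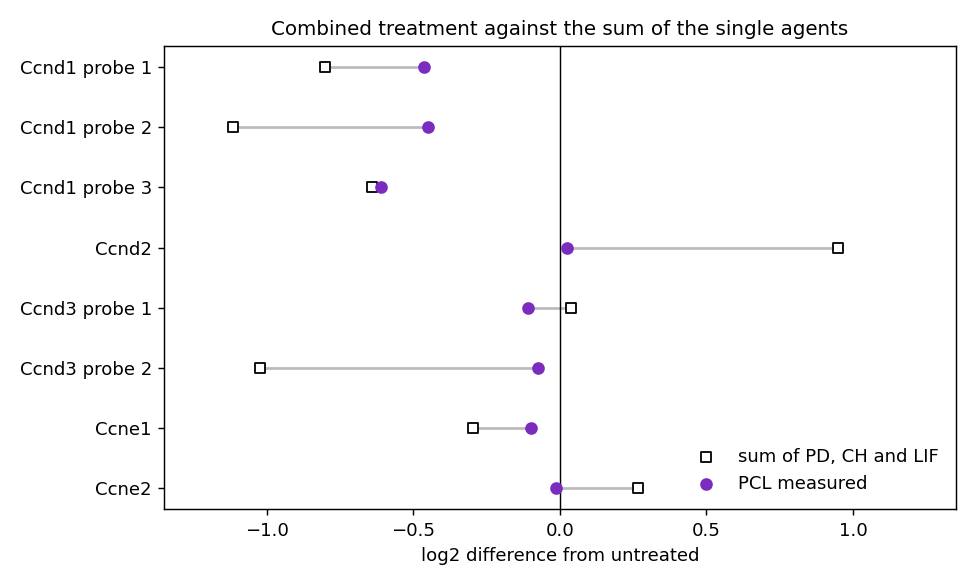
Log2 difference from untreated (x axis) measured with PCL (filled circles) and summed over PD, CH and LIF alone (open squares) for the 8 detected probes, 1 array per condition. Ccnd2 shows the longest distance to the left, from 0.95 to 0.02, and the second Ccnd3 probe the longest to the right, from -1.03 to -0.07.

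Some fibroblast markers stood higher with PD and others did not, and their part in the cyclin values was not tested. Of 10 detected feeder markers, 8 stood above untreated with PD, where 50.2% of all genes did. On their brightest probes Fbln2, Timp3 and Lox did so by more than 2-fold, and Mgp was lower by more than 2-fold. The other detected probes of Fbln2 stood at 0.34 and 0.49 with PD, under 2-fold. Thy1 at 0.08 ± 0.12, Lum at 0.11 ± 0.16 and Vim at -0.06 ± 0.10 lay within the bead error of untreated. The median of the 10 was 0.60 with PD, 0.07 under CH, -0.17 under LIF and 0.31 under PCL. The summed raw signal of the 15 markers was 7053 in untreated cells, 10815.5 on the PD array, 8219 under CH, 7733 under LIF and 8789 under PCL. These sums are not normalized and include the markers detected on no array. The untreated array also had the lowest median signal over all probes, at 90.0, against 91.5 to 96.1 on the others. With LIF the raw sum was above untreated while the normalized median was -0.17. Ccnd1 stood lower on the PD array, where the raw sum was highest, and Ccnd2 stood higher there and on the CH array. Epiblast markers had a median of 0.05 on the PD array, -0.21 under CH, 0.10 under LIF and -0.42 under PCL. Among them Utf1 at -1.12 and Tdgf1 at -1.09 with PD, and Utf1 at -1.77 and Fgf5 at -1.16 with PCL, were past 2-fold.

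The kinases and inhibitors that act with the G1 cyclins were read from a list of 16 genes, of which 14 were on the array and 10 or 11 were compared. None was at least 2-fold from untreated with any agent, and the medians were 0.19 on the PD array, 0.09 under CH, 0.01 under LIF and 0.01 under PCL. The CDK inhibitor Cdkn1a (p21) stood at 0.49 ± 0.07 with CH and 0.84 ± 0.07 with PCL, while further probes gave 0.22 to 0.51 and 0.45 to 1.00. Cdkn1b (p27), which inhibits cyclin E and CDK2, stood at 0.81 ± 0.20 with PD and 0.63 ± 0.18 with LIF, on a probe close to background. The CDK4 and CDK6 inhibitor Cdkn2d stood at -0.72 ± 0.23 with CH, -0.64 ± 0.22 with PCL and -0.51 ± 0.22 with PD. Cdkn2a stood at -0.86 ± 0.18 with LIF, with its other probe at -0.62, and Cdkn1c at -0.44 ± 0.07 with CH and 0.32 ± 0.07 with PD.

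Of 13 genes of the Rb and E2F family, 12 were on the array, 10 were compared and 0 were at least 2-fold from untreated on their brightest probe in any comparison. Their medians were -0.06, -0.21, 0.04 and -0.06 with PD, CH, LIF and PCL. Tfdp2, a dimerization partner of E2F factors, stood at -0.70 ± 0.19 with CH and -0.70 ± 0.16 with PCL, and further probes gave -1.06 and -0.69 with CH, the former past 2-fold. E2f1 stood at -0.26 ± 0.07 with PD and -0.27 ± 0.09 with CH, and Rb1 at 0.36 ± 0.12 with PD and 0.42 ± 0.11 with LIF. Of 20 E2F targets of S phase, 15 were compared and 0 were 2-fold from untreated. Their medians were -0.01, 0.00, 0.31 and -0.09, with 10 of 15 above untreated with LIF and 4 of 15 with PCL, against 55.2% and 49.3% of all genes. The replicative helicase subunit Mcm6 stood at 0.57 ± 0.08 with PD and 0.87 ± 0.09 with LIF, but its other probes ranged from -0.23 to 0.22 and from -0.10 to 0.51. Thymidine kinase Tk1 stood at -0.39 ± 0.11 with PD, -0.40 ± 0.09 with CH and -0.54 ± 0.12 with PCL, and its other probes ranged from -0.09 to 0.61 with PCL. Tyms, which makes thymidylate, stood at -0.40 ± 0.09 with PD and its other probes at -0.62 to -0.49. Of 6 later cyclins 1, Ccnf, was detected, at -0.21 to 0.01.

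The Myc network and Myc target lists were read although Myc and Mycn themselves were not detected. Of 15 network partners, 14 were on the array, 9 were compared with PD, CH and LIF and 8 with PCL, and 0 were at least 2-fold from untreated. Their medians were -0.15, 0.03, 0.09 and -0.07. These include Mnt and Mga with PD, Mlx with CH and Mxi1 with LIF, each undetected on 1 array of the pair. The Max-binding repressor Mxd4 stood at -0.88 ± 0.25 with CH and the glucose-responsive factor Mlxipl at 0.62 ± 0.17. Max, the shared partner, stood at -0.28 ± 0.11 with LIF, with its other probe at 0.04. Of 26 Myc targets, 24 were on the array and 21 or 22 were compared, with medians of 0.01, 0.10, 0.16 and 0.04. With CH 17 of 22 stood above untreated and with LIF 16 of 22, Nolc1 with a bound or no measured difference, against 48.5% and 55.2% of all genes. The median of all genes with LIF was 0.05, and 0.19 under median scaling. Among them 1 was at least 2-fold lower with LIF, the mitochondrial chaperonin Hspe1 at -1.04 ± 0.14. Mybbp1a, a nucleolar protein, stood at 0.63 ± 0.06 with CH and 0.60 ± 0.09 with LIF, with its other probes at 0.40 or more. With PD the ribosome biogenesis gene Bop1 stood at -0.60 ± 0.13 and the small nucleolar RNP methylase Fbl at -0.48 ± 0.09. Spermidine synthase Srm stood at -0.46 ± 0.07 with PD, and its other probes at -0.51 and -0.44. Nop58 went the other way, at 0.39 ± 0.07. In all, 11 of 21 targets stood above untreated with PD, against 50.2% of all genes. Cdk4, Ccnh, E2f8, Trrap, Polr1b, Wdr43, Gins1 and Ccnb1 were among the list genes not matched to a probe.

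**Figure D4:**
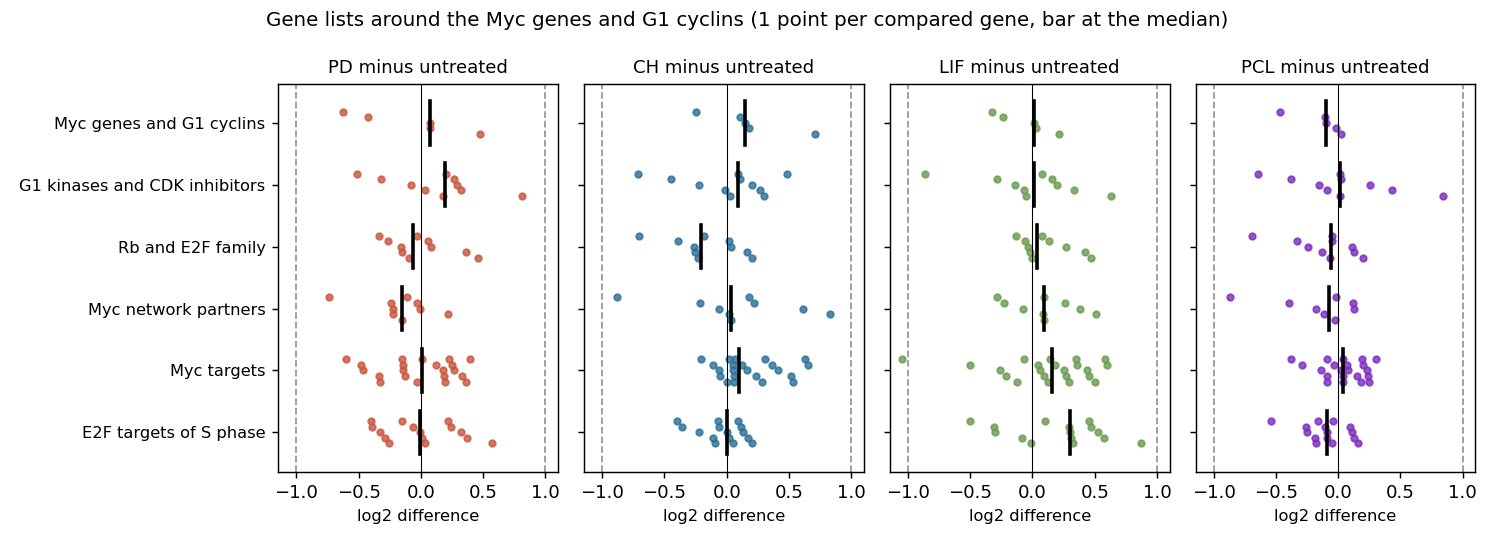
Log2 difference from untreated (x axis) of each compared gene in 6 lists, in a panel for each of PD, CH, LIF and PCL, with a bar at the median and dashed lines at 2-fold. The 1 point past 2-fold is the Myc target Hspe1 with LIF at -1.04. In the row of Myc genes and G1 cyclins the 5 compared genes are all cyclins, and their medians lie between -0.10 and 0.14.

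Genes with a profile like that of a member were sought among 6732 genes detected on all arrays, by the root mean square difference between centred log2 levels over the 5 arrays. No member spanned 1 log2 unit on its brightest probe, so the span required was lowered to 0.5 after the values were seen, which admitted Ccnd1, Ccnd2 and Ccne1. Nearest to Ccnd1 were Arhgdib at a distance of 0.04, Bop1 at 0.06 and the mitotic regulator Mad2l2 at 0.06. Nearest to Ccnd2 were N4bp2 at 0.06, Irgq at 0.12 and Hr, a transcriptional corepressor, at 0.13. Nearest to Ccne1 were Knop1, Ddx49 and the kinase Eif2ak1, each at 0.02. The bead standard errors of the single Ccne1 levels were 0.08 to 0.10, above the Ccne1 distances. Those of the brightest Ccnd1 probe were 0.05 to 0.07, about the size of the Ccnd1 distances. Which genes lay nearest to Ccne1 and Ccnd1, and in which order, was therefore not resolved. For Ccnd2 these errors were 0.06 to 0.08, no smaller than the distance of N4bp2, so its place as the nearest was not resolved either. Bop1 stood at -0.60 with PD and -0.38 with PCL, and N4bp2 at 0.45 with PD, 0.55 with CH and 0.02 with PCL.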

How the data were processed

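Gene expression was measured on 5 single-colour bead arrays, 1 per condition, with samples grouped by their titles. The authors deposited, per the file headers, a mean bead intensity, its standard error over beads and a detection p-value for 25697 probes per array. The submitters' processing notes name BeadStudio, with its version not given in the sources used here. Each deposited detection p-value is a multiple of 1 in 798, as a share of 798 negative controls would be, and neqc took the background from it. A deposited table of processed intensity, with scaling and background subtraction unknown, served as an alternative.

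Scanner intensities were corrected and quantile normalized with the neqc function (limma 3.58.1, R 4.3.3, offset 16, log2), which pulls differences of dim probes towards 0, and were checked on simulated arrays. Bead errors were carried to the log2 scale through each array's own curve. Differences are values without a test. Where 1 array of a pair did not detect a probe, "at least" marks a bound against the dimmest detected level. Probes were named through the platform annotation, 23962 matching RefSeq identifiers. Each gene was represented by its brightest probe on average, and a gene was compared when detected on at least 1 of the 2 arrays. Named genes were all members, up to 4 detected genes per list with the largest difference in each comparison, response and reference genes, and 3 genes nearest in profile. Members and lists were chosen with earlier results of these data known. Tables were handled with Python 3.11.15 and pandas 2.3.3.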

Additional observations from a re-analysis of the deposited data

How the results depend on the processing

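With 1 array per condition nothing could be left out, and the bead error is the sole error available. No paired analysis was possible because each group held 1 sample and no result comes from a test. No difference from untreated on a member's brightest probe that exceeded 2 bead standard errors turned its sign under another offset, no background correction, median scaling or the authors' processed values, or, for single agents, with the mean of arrays without the agent as reference. The count of members past 2-fold was 0 in every setting run. Detection filters leave a probe's own value as it is. With the mean of arrays without the agent as reference, Ccnd1 moved to 0.46 with CH and -0.16 with LIF, Ccnd2 to 0.32 with PD and -0.63 with LIF, Ccnd3 to -0.34 and Ccne1 to 0.24 with CH. Under median scaling Ccnd1 moved to -0.55 with PCL, Ccnd2 to 0.83 with CH and -0.019 with LIF, Ccnd3 to -0.22 with PCL, and Ccne1 and Ccne2 to 0.20 and 0.21 with LIF, where the median of all genes was 0.19. Without background correction Ccnd2 stood at 0.34 with PD and 0.52 with CH, and with an offset of 50 at 0.60 with CH. Ccnd1 with PD ranged from -0.67 to -0.56 on its brightest probe. Over all genes, 73, 74, 231 and 106 were past 2-fold with PD, CH, LIF and PCL. With an offset of 1 these counts were 405, 382, 571 and 413, with the authors' values 349, 302, 475 and 346, and without background correction 15, 15, 139 and 28. An offset of 50 left 25, 22 and 45 with PD, CH and PCL, and detection on both arrays left 40 with CH and 68 with PCL. Under median scaling the split of higher and lower genes was 60 and 19 with PD, 63 and 20 with CH and 48 and 170 with LIF, against 38 and 35, 44 and 30, and 12 and 219. The cause of these shifts was not tested. Differences over all genes also tended to be higher for genes of longer genomic span. In 10 groups by span, the medians of group 1, the shortest, were -0.14 with PD, -0.13 with CH and -0.30 with LIF. Those of group 9, which held Ccnd3, were 0.16, 0.07 and 0.17. Ccnd1 and Ccne1 fell in group 3, at -0.09 with PD and -0.05 with LIF. The part of this trend in the member and list values was not tested.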

Other observations

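Mycl, a further Myc family gene not among the members, was detected on every array on its 1 probe. Its signal was 397 in untreated cells, 377 on the PD array, 503 under CH, 437 under LIF and 241 under PCL. The PCL array was the lowest and lay apart from the other 4. The difference from untreated was -0.22 ± 0.09 with PD, 0.22 ± 0.09 with CH and -0.87 ± 0.10 with PCL. PCL minus PD was -0.65 ± 0.10, PCL minus CH was -1.09 ± 0.09 and PCL minus LIF was -0.80 ± 0.10. The single differences of Mycl summed to -0.07, which left a departure of -0.79 ± 0.20 in the combination, and 11.3% of genes departed further down.

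At the main setting Cdkn1b and Mybbp1a departed further from the sum of single agents than any member did. With its bead error the Cdkn1b value was not resolved from the -0.93 ± 0.21 of Ccnd2. Under median scaling Ccnd2 departed by -1.37, and these 2 genes were not read in that setting. For Cdkn1b the sum was 1.23 and PCL stood at 0.02, a departure of -1.20 ± 0.37, on a probe that read 106.6 in untreated cells, near the dimmest detected signal. For Mybbp1a the sum was 1.55 and PCL stood at 0.25, a departure of -1.31 ± 0.14, and 1.89% of genes departed further down. Cdkn1a stood at 0.84 with PCL against a sum of 0.71, a departure of 0.13 ± 0.15. These genes were singled out after their values were seen.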
